A study of Mus musculus with 12 samples.

Results

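The genes described are 8 nuclear receptors through which the liver reads bile acids, oxysterols and fatty acids, with Fgfr4 and Klb, the receptor pair for the gut hormone FGF15. They were taken as a fixed list of 10 names from the gene names of the array, out of 31870 symbols, of which 19536 had enough signal to be tested. All 10 were well above background on all 12 arrays, so none was lost to the filter on dim genes. Liver RNA of 12 mice was measured on 12 one-colour microarrays, 1 mouse per array and 3 mice in each of 4 groups. The groups were FSAP-/- mice with bile duct ligation (BDL), FSAP-/- mice with a sham operation, WT (FSAP+/+) mice with BDL, and WT mice with a sham operation. FSAP, factor VII-activating protease, is a circulating serine protease made in the liver and encoded by Habp2, and BDL closes the common bile duct so that bile backs up into the liver. All mice were on a BalbC background, with the null allele backcrossed up to the F3 generation only, so other parental DNA can remain. WT mice were littermates from crosses of heterozygotes, all were 20 to 30 weeks old, and livers were frozen 2 weeks after surgery. The sex of the mice is not stated in the labels. The series title names the question of FSAP in liver fibrosis, and the comparisons here ask how BDL, the loss of FSAP and their combination moved the 10 receptors.

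Nr1h4 encodes FXR, the main bile acid receptor of the hepatocyte nucleus. Bound by bile acids, it pairs with RXR alpha, the product of Rxra, and switches on the gene of SHP (Nr0b2), a receptor without a DNA-binding domain that represses the bile acid synthesis genes by way of LRH-1 (Nr5a2). In the ileum FXR switches on FGF15, which travels to the hepatocyte, binds FGFR4 with its co-receptor beta-klotho (Klb) and also lowers bile acid synthesis. PXR (Nr1i2) and CAR (Nr1i3) switch on detoxifying enzymes when toxic bile acids and drugs build up. LXR alpha (Nr1h3) senses oxysterols, and PPAR alpha (Ppara) senses fatty acids and runs their oxidation and ketone body synthesis. FXR, PXR, CAR, LXR alpha and PPAR alpha bind DNA with RXR alpha, at repeats of a half-site whose consensus is AGGTCA, and the spacing of the repeats favours one pair or another. LRH-1 binds alone, at an extended half-site.

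The sequences of 4 upstream windows and 3 array probes are given because the results turn on these genes. Ppara, Nr1i3 and Nr1h4 were lower after BDL in both genotypes. Nr0b2 had changes of opposite sign in the 2 genotypes, but it was called in neither and its groups overlapped in both. The 2 probes of Nr1i3 allow the same change to be read by separate probes. The windows hold the 250 bases before a RefSeq transcript start, on GRCm38.p6, written 5′ to 3′ on the strand of the gene, with capitals for matches to the searched motifs.
Nr0b2, chr4:133553126-133553375, plus strand: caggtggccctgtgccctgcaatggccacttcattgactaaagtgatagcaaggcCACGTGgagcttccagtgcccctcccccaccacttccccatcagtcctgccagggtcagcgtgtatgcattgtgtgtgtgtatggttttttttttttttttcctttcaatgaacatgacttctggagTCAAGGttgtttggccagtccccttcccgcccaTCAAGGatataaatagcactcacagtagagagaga
Ppara, chr15:85735526-85735775, plus strand: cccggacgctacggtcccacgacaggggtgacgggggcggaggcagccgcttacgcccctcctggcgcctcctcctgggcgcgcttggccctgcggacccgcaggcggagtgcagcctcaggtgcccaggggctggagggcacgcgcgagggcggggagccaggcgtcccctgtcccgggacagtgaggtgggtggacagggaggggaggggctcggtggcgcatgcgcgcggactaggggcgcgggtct
Nr1i3, chr1:171213720-171213969, plus strand: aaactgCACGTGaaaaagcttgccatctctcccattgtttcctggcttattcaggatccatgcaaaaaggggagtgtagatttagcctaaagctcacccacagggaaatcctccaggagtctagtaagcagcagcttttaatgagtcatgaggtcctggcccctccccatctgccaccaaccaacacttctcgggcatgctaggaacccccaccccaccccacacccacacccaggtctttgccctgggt
Nr1h4, chr10:89506659-89506908, minus strand: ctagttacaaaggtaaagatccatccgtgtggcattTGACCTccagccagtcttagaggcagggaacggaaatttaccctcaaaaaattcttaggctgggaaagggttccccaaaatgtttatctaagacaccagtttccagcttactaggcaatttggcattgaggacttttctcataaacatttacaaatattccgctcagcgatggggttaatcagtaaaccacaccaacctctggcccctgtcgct
The capitals mark CACGTG and then TCAAGG at 2 places in Nr0b2, CACGTG in Nr1i3, and TGACCT, the complement of the half-site AGGTCA, in Nr1h4. The Ppara window held none of the motifs searched.
The array read Nr0b2 with 1 probe and Nr1i3 with 2 probes of 60 bases each, placed on mm9 by the files, and no transcript annotation of that build was used to say which part of the gene they cover.
Nr0b2 probe, chr4:133109694-133109753, plus strand: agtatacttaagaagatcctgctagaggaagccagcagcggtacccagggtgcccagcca
Nr1i3 brighter probe, chr1:173148765-173148824, plus strand: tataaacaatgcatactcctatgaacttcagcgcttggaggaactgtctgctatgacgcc
Nr1i3 dimmer probe, chr1:173147776-173147835, plus strand: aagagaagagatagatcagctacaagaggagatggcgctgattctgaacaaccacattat

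Exact motifs were counted on both strands of the 250-base windows. The 10 genes had 13 windows, since Nr5a2, Nr1h3 and Rxra each had 2 starts in the table, and the same search over 32851 windows of all genes gave the background. TCAAGG, the core of the site that LRH-1 binds, lay in 12.5% of all windows and in 1 of the 13, that of Nr0b2, where it stood 68 and 35 bases before the start. The half-site AGGTCA lay in 14.0% of all windows and in 3 of the 13, with Nr5a2, Rxra and Nr1h4 as the genes. CACGTG, the E-box bound by clock factors, lay in 6.02% of all windows and in 2 of the 13, those of Nr1i3 and Nr0b2. The extended LRH-1 site TCAAGGTCA, which contains TCAAGG and AGGTCA, lay in 0.387% of all windows. The paired sites AGGTCANTGACCT, AGGTCANAGGTCA and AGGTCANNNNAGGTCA lay in 0.00609%, 0.0335% and 0.0152% of them. None of the last 4 occurred in the 13 windows (0 of 13), which says only that these exact letters are not in these windows. 

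Levels are log2 of the processed signal minus the 75th percentile of the same array, so 0 is the brightness below which 75% of that array's signals fell. Levels of different genes come from different probes and are not set against each other. Changes are differences of group means on this scale from 1 limma model of the 4 groups. A gene is called changed at a Benjamini-Hochberg adjusted p under 0.05 over all 19536 genes, and "rose" and "fell" are used of called genes only. Every array carried 44397 spots, of which 43020 were not controls. Of these non-control spots, 54.5% to 62.3% were well above background, and none was saturated. The 12 arrays lay on 4 slides, and no slide held both genotypes with the same surgery, so slide and genotype cannot be fully told apart. All 3 WT sham arrays shared a slide with only 1 WT BDL array. All 3 FSAP-deficient BDL arrays shared another with only 1 FSAP-deficient sham array. Within each genotype, slide and surgery thus cannot be fully told apart either. FSAP-deficient sham replicate 1 was alone on its slide and was scanned on another day. Y-linked genes gave signal on 3 arrays, FSAP-deficient sham replicate 1, FSAP-deficient BDL replicate 1 and FSAP-deficient BDL replicate 2, and on 0 of 6 WT arrays. Such signal was thus uneven between BDL and sham in FSAP-deficient livers and between genotypes, and its part in these comparisons cannot be told apart. Leaving out these 3 arrays keeps only replicate 3 of the FSAP-deficient BDL group.

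**Figure D1:**
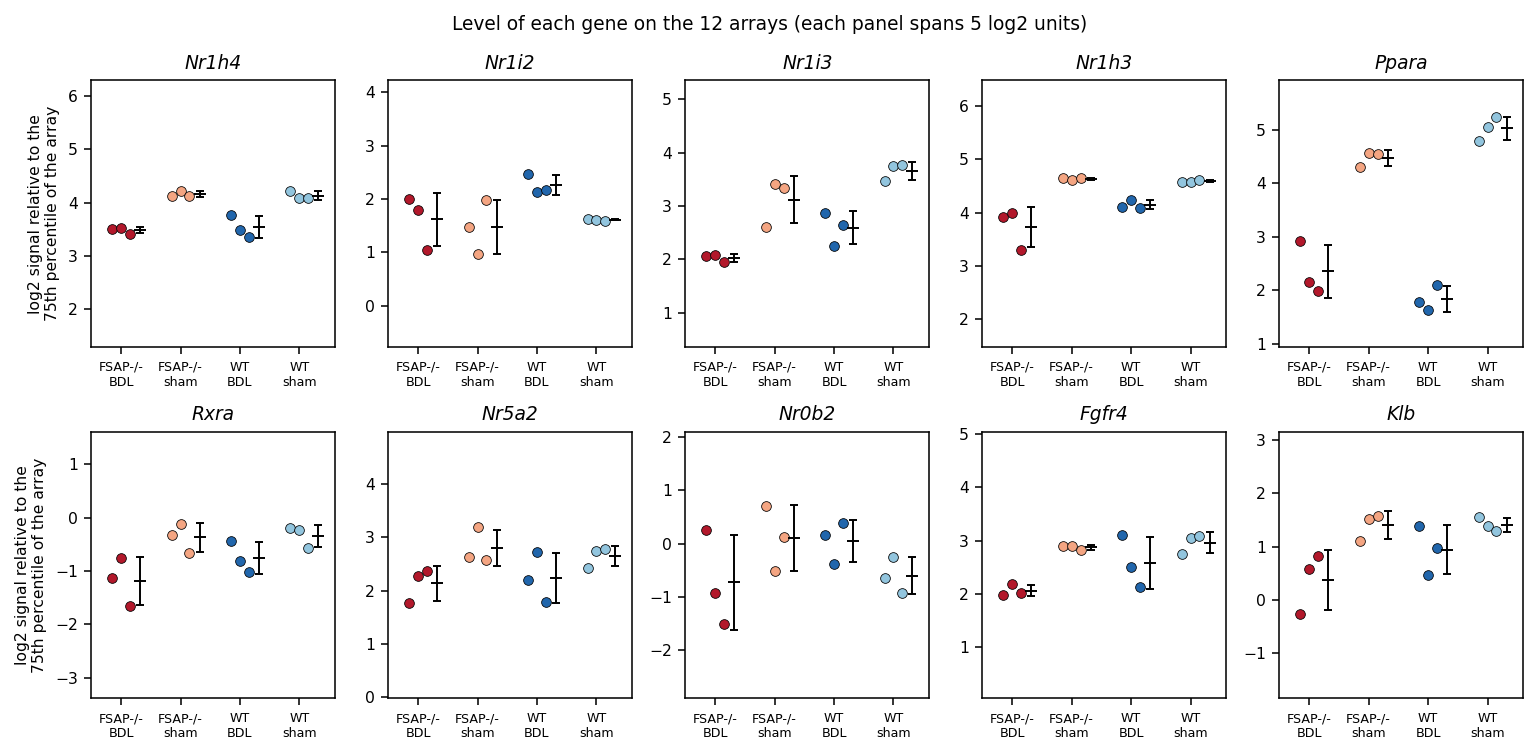
Level of each of the 10 genes on every array, as log2 signal relative to the array's 75th percentile, with points for mice and bars for the group mean and SD (n = 3). The BDL and sham points of Ppara lie far apart in both genotypes, while those of Nr0b2 overlap in both.

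After BDL the bile-sensing receptors stood mostly lower than after sham. In FSAP-deficient livers 7 of the 10 genes fell and 0 rose, where 39% of all genes tested were called, 22.8% down and 16.2% up. In WT livers 3 of the 10 fell and 0 rose, where 32.9% of all genes were called, 17.7% down and 15.2% up. The 3 were Ppara, Nr1i3 and Nr1h4, and they fell in both genotypes. The other 4 that fell in FSAP-deficient livers were Nr1h3, Rxra, Fgfr4 and Klb. At an unadjusted p under 0.05, 8 of the 10 passed in FSAP-deficient and 5 in WT livers, as did 47.9% and 43.4% of all genes. Every BDL mouse was below every sham mouse for 8 of the 10 genes in FSAP-deficient and for 4 in WT livers, as was so for 28.6% and 28% of all genes. The median change over the 10 genes was -0.82 in FSAP-deficient livers, against -0.16 for all genes, and -0.43 in WT livers, against -0.03 for all genes. With slide as a fixed block, the called genes numbered 3 in FSAP-deficient and 1 in WT livers. That block leaves 1 FSAP-deficient sham array (replicate 3) and 1 WT BDL array (replicate 1) to carry each comparison. With only the groups of each comparison in the model, they numbered 6 in FSAP-deficient and 5 in WT livers.

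Markers of other cells moved with these changes. The mean level of the 10 hepatocyte markers with a value on every array was 6.16 to 6.82 on FSAP-deficient BDL arrays and 7.37 to 7.42 on FSAP-deficient sham arrays. It was 6.60 to 7.13 on WT BDL arrays and 7.23 to 7.30 on WT sham arrays, with the 7.13 on replicate 1, the WT BDL array that the slide block keeps. Of 11 tested, 1 of them without a value on FSAP-deficient sham replicate 1, 8 fell in FSAP-deficient livers and 3 in WT livers, with median changes of -0.69 in FSAP-deficient and -0.46 in WT livers. Of 11 tested markers of bile duct cells, 8 rose and 1 fell in each genotype, and of 10 macrophage markers 10 rose in FSAP-deficient and 9 in WT livers. WT BDL replicate 1 was not the nearest to sham in these: its mean was -0.75 for bile duct cells, against -1.15 and -0.77 on the other WT BDL arrays. For macrophages it was 2.60, against 2.55 and 2.63. Of 10 markers of stellate cells and myofibroblasts, the collagen-making cells of the scar, 6 rose in FSAP-deficient and 3 in WT livers. Their mean level was 0.38 to 1.23 on FSAP-deficient BDL arrays and -1.24 to 0.31 on WT BDL arrays. The low WT value was that of replicate 1, and the other WT BDL arrays stood at 0.31 and 0.20. On sham arrays the mean was -1.91 to -1.82 in FSAP-deficient and -1.72 to -1.57 in WT livers. Between genotypes after BDL and in the interaction, 0 of these 10 markers were called, where 0.215% and 0.0102% of all genes were. Neutrophil markers rose in 2 of 7 in each genotype, sinusoidal endothelial markers in 2 of 8 in each, and of 6 lymphocyte markers 2 fell in FSAP-deficient and 3 in WT livers. In whole liver, fewer hepatocytes and less RNA per hepatocyte cannot be told apart, and the part of the cell makeup in the changes of the receptors was not tested.

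**Figure D2:**
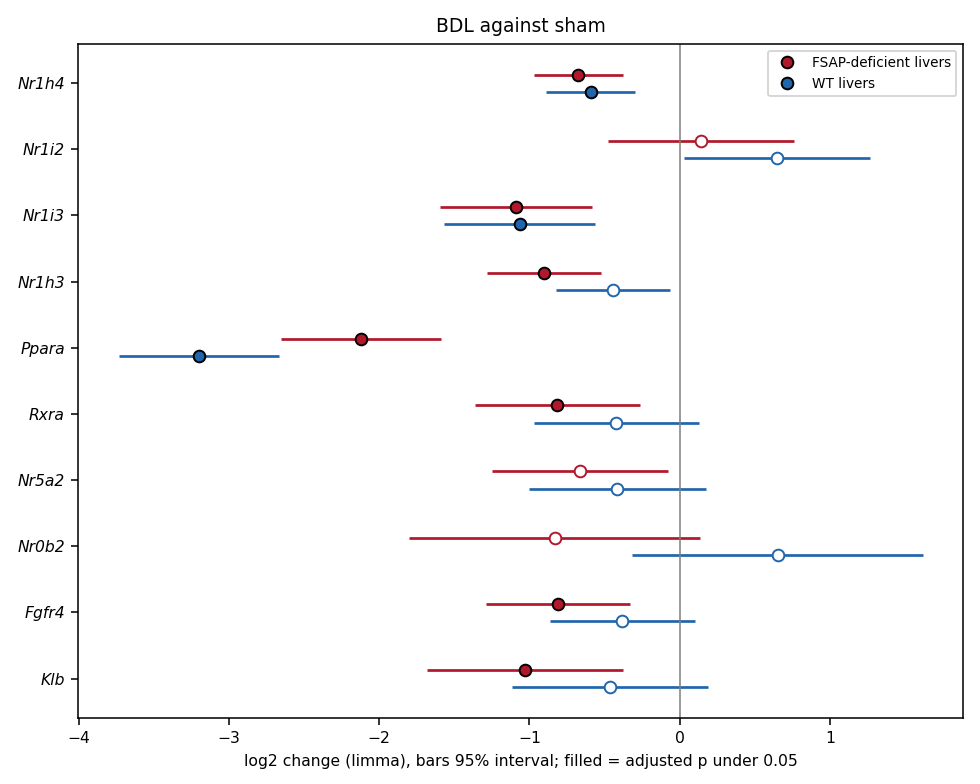
Change of each gene after BDL against sham, FSAP-deficient livers above WT livers, as log2 change with its 95% interval, filled where the adjusted p was under 0.05. The interval of Ppara lies below -1.5 in both genotypes, and the points of Nr0b2 lie on opposite sides of 0.

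Nr1h4, the gene of FXR, fell in both genotypes. In FSAP-deficient livers its level was 3.51, 3.53 and 3.41 after BDL, against 4.12, 4.23 and 4.13 after sham. In WT livers it was 3.76, 3.48 and 3.36 after BDL, against 4.22, 4.09 and 4.08 after sham. The BDL and sham mice did not overlap in either genotype, and the sham groups of the 2 genotypes overlapped with each other. The change was -0.67 (SE 0.13, limma adjusted p = 0.00279) in FSAP-deficient and -0.59 (SE 0.13, limma adjusted p = 0.00669) in WT livers. The call depended on the scaling: after quantile normalization the changes were -0.30 (adjusted p = 0.101) in FSAP-deficient and -0.36 (adjusted p = 0.0632) in WT livers. With slide as a block the WT change was -0.36 (adjusted p = 0.204).

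Rxra, the shared partner of these receptors, stood at -1.13, -0.76 and -1.66 in FSAP-deficient livers after BDL and at -0.32, -0.12 and -0.66 after sham. In WT mice it stood at -0.44, -0.82 and -1.02 after BDL and at -0.20, -0.24 and -0.58 after sham. The BDL mice were all below the sham mice in FSAP-deficient livers, and the WT groups overlapped. The change was -0.81 (SE 0.25, limma adjusted p = 0.0248) in FSAP-deficient livers, and -0.42 with a 95% interval of -0.97 to 0.13 in WT livers. The FSAP-deficient call was lost without replicate 1 or 2 of the sham group, without replicate 3 of the BDL group, with only the FSAP-deficient groups in the model, and with slide as a block (-0.52). 

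Nr0b2, the gene of SHP and the best known FXR target in the liver, was called in neither genotype. In FSAP-deficient livers its level was 0.25, -0.93 and -1.51 after BDL, against 0.70, -0.52 and 0.13 after sham. Among WT livers it was 0.15, -0.39 and 0.38 after BDL, against -0.64, -0.24 and -0.93 after sham. The groups overlapped in both genotypes, and the FSAP-deficient BDL mice had the widest spread of any group of the gene, with replicate 1 the high one. The change was -0.83 (95% interval -1.80 to 0.14) in FSAP-deficient and 0.65 (95% interval -0.32 to 1.62) in WT livers. Without replicate 1 of the FSAP-deficient BDL group Nr0b2 fell in FSAP-deficient livers, at -1.32. Without the 3 arrays with Y-linked signal it stood at -1.31, with only replicate 3, the lowest, left in the FSAP-deficient BDL group. The order of the group means was FSAP-deficient sham, WT BDL, WT sham and FSAP-deficient BDL, and each group overlapped with the next.

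Nr5a2, the gene of LRH-1, which SHP holds in check, was called in neither genotype. Its level was 1.77, 2.27 and 2.36 in FSAP-deficient livers after BDL and 2.62, 3.19 and 2.57 after sham, so that the groups did not overlap. In WT livers it was 2.19, 2.72 and 1.79 after BDL and 2.42, 2.74 and 2.78 after sham, which overlapped. The change was -0.66 (SE 0.27, limma adjusted p = 0.0706) in FSAP-deficient and -0.41 (SE 0.27, limma adjusted p = 0.261) in WT livers. In FSAP-deficient livers 4 of 24 alternatives called it, namely normexp background correction, median scaling, the replicate block and the leaving out of WT BDL replicate 2.

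Fgfr4 and Klb, whose products together receive FGF15, fell in FSAP-deficient livers. Fgfr4 stood at 1.98, 2.18 and 2.02 in these livers after BDL, against 2.89, 2.90 and 2.82 after sham. In WT livers Fgfr4 stood at 3.10, 2.51 and 2.13 after BDL, against 2.74, 3.05 and 3.09 after sham. Replicate 1 of WT BDL thus had the highest level of its genotype while the other WT BDL mice were below all WT sham mice. The change of Fgfr4 was -0.81 (SE 0.22, limma adjusted p = 0.0132) in FSAP-deficient and -0.38 (SE 0.22, limma adjusted p = 0.207) in WT livers. Without replicate 1 of WT BDL it fell in WT too, at -0.64. Within the slide that held that array and the 3 WT sham arrays, the difference was 0.14, the opposite sign. In FSAP-deficient livers the call was lost with quantile normalization or the authors' matrix values, and with slide as a block (-0.77). The call was also lost without the arrays with Y-linked signal (-0.84), where only replicate 3 of the FSAP-deficient BDL group was left.

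Klb stood at -0.27, 0.58 and 0.82 in FSAP-deficient livers after BDL, against 1.11, 1.53 and 1.58 after sham. In WT mice it stood at 1.39, 0.48 and 0.97 after BDL, against 1.55, 1.39 and 1.29 after sham. The FSAP-deficient groups did not overlap and the WT groups did. The change was -1.03 (SE 0.30, limma adjusted p = 0.0187) in FSAP-deficient and -0.46 (SE 0.30, limma adjusted p = 0.26) in WT livers. The FSAP-deficient call was lost without sham replicate 2 or 3, or without BDL replicate 1, whose level was the lowest. With slide as a block, where the change was -1.20, it was lost too, as it was without the arrays with Y-linked signal (-0.73). That last fit kept only replicate 3 of the FSAP-deficient BDL group.

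Nr1i3, the gene of CAR, fell in both genotypes. Its level was 2.06, 2.09 and 1.95 in FSAP-deficient livers after BDL, against 2.61, 3.42 and 3.33 after sham. Among WT livers it was 2.88, 2.26 and 2.65 after BDL, against 3.46, 3.76 and 3.77 after sham. BDL mice were below sham mice in each genotype, and FSAP-deficient BDL mice were below WT BDL mice. The change was -1.09 (SE 0.23, limma adjusted p = 0.00375) in FSAP-deficient and -1.07 (SE 0.23, limma adjusted p = 0.00496) in WT livers. The dimmer of the 2 probes printed above gave -1.17 in FSAP-deficient and -1.01 in WT livers, and both were called. Over 24 alternative settings the call was kept in 24 for FSAP-deficient and 23 for WT livers, the exception being slide as a block (-0.78, adjusted p = 0.0537).

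Nr1i2, the gene of PXR, was called in neither genotype. It stood at 2.01, 1.80 and 1.05 in FSAP-deficient livers after BDL and at 1.47, 0.98 and 1.98 after sham, which overlapped. In WT livers it stood at 2.48, 2.14 and 2.17 after BDL and at 1.62, 1.61 and 1.60 after sham. All 3 WT BDL mice were above all WT sham mice, as was so for 24.2% of all genes. The change was 0.14 (95% interval -0.47 to 0.76) in FSAP-deficient and 0.65 (95% interval 0.03 to 1.27, adjusted p = 0.1) in WT livers. With only the WT groups in the model it was called as a rise in WT livers (limma adjusted p = 0.0127), the 1 alternative of 24 that called it. 

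Nr1h3, the gene of LXR alpha, fell in FSAP-deficient livers. Its level was 3.91, 3.98 and 3.31 after BDL, against 4.64, 4.61 and 4.66 after sham. In WT mice it was 4.11, 4.25 and 4.09 after BDL, against 4.58, 4.58 and 4.62 after sham. The groups did not overlap in either genotype, and FSAP-deficient BDL mice were all below WT BDL mice. The change was -0.90 (SE 0.17, limma adjusted p = 0.00208) in FSAP-deficient livers, lost only with slide as a block among 24 alternatives (-0.92, adjusted p = 0.0514). Among WT livers it was -0.44 (SE 0.17, limma adjusted p = 0.0691), and 5 of 24 alternatives called it, among them the mean of both probes and the fit of the WT groups alone.

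Ppara had the largest change of the 10 genes in both genotypes. In FSAP-deficient livers it stood at 2.92, 2.16 and 1.99 after BDL, against 4.31, 4.57 and 4.55 after sham. In WT livers it stood at 1.77, 1.62 and 2.10 after BDL, against 4.80, 5.05 and 5.24 after sham. BDL mice were below sham mice by over 1 unit in each genotype, and among sham mice the FSAP-deficient ones were all below the WT ones. It fell 4.35-fold (log2 change -2.12, SE 0.24, limma adjusted p = 0.000108) in FSAP-deficient and 9.20-fold (log2 change -3.20, SE 0.24) in WT livers. All 24 alternatives kept both calls, and the change ranged over them between -2.58 and -1.79 in FSAP-deficient and between -3.36 and -2.89 in WT livers.

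**Figure D3:**
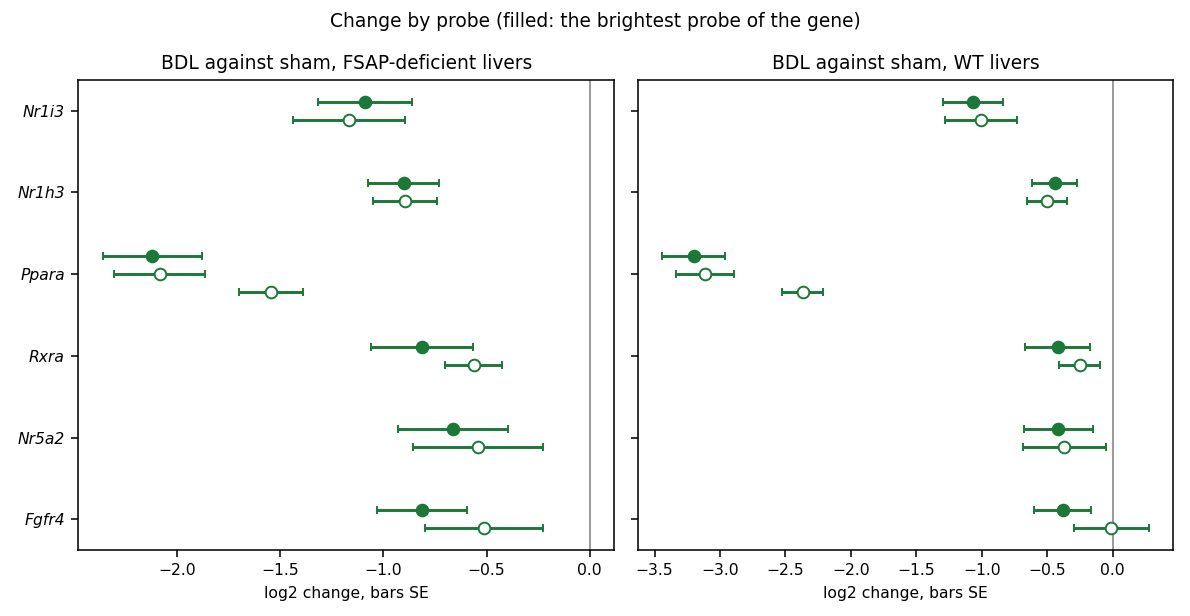
Change after BDL for each probe of the 6 genes with several probes, FSAP-deficient livers left of WT livers, as log2 change with its SE, filled for the brightest probe. The 3 probes of Ppara all lie below -1.5, and the WT value of the dimmer Fgfr4 probe lies at -0.01.

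The 10 genes were read by 17 probes, and the 7 probes not used for the values above allow a second reading of 6 genes. For Ppara the other 2 probes gave -2.09 and -1.55 in FSAP-deficient and -3.11 and -2.37 in WT livers, all called. The second probe of Nr1h3 gave -0.90 in FSAP-deficient and -0.50 in WT livers, and its WT change was called (adjusted p = 0.0282) where the brighter probe missed the threshold. The second probe of Rxra gave -0.56 (adjusted p = 0.0104) in FSAP-deficient and -0.25 in WT livers. The second probe of Nr5a2 gave -0.54 in FSAP-deficient and -0.37 in WT livers, neither called. The second probe of Fgfr4 gave -0.51 (adjusted p = 0.184) in FSAP-deficient and -0.01 in WT livers, so the fall of Fgfr4 rests on its brighter probe.

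Between genotypes, 0 of the 10 genes were called after BDL, where 0.215% of all genes were called. At an unadjusted p under 0.05, 4 of the 10 passed (Nr1i2, Nr1i3, Nr1h3 and Fgfr4), all lower in FSAP-deficient livers, against 12.9% of all genes. For Nr1i2, Nr1i3 and Nr1h3 every FSAP-deficient BDL mouse was below every WT BDL mouse, as was so for 8.96% of all genes. The difference was -0.64 (SE 0.28, limma adjusted p = 0.375) for Nr1i2 and -0.57 (SE 0.23, limma adjusted p = 0.336) for Nr1i3. It was -0.41 (SE 0.17, limma adjusted p = 0.344) for Nr1h3 and -0.52 (SE 0.22, limma adjusted p = 0.348) for Fgfr4. Single arrays weighed on 3 of them: without FSAP-deficient BDL replicate 3 the difference was -0.20 for Nr1h3 and -0.36 for Nr1i2, and without WT BDL replicate 1 it was -0.26 for Fgfr4. In 9 of the 10 genes the FSAP-deficient BDL mean was the lower one, with a median of -0.47 against -0.03 for all genes. The exception was Ppara, at 0.53 (95% interval -0.01 to 1.06, limma adjusted p = 0.392). Nr1h4 differed by -0.05 (95% interval -0.35 to 0.25).

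After sham, 0 of the 10 genes were called between genotypes, where 0.0154% of all genes were called. Nr1i3 and Ppara passed an unadjusted p under 0.05, as did 7.89% of all genes, and every FSAP-deficient sham mouse was below every WT sham mouse in both genes, as was so for 7.23% of all genes. Nr1i3 differed by -0.54 (SE 0.23, limma adjusted p = 0.591) and Ppara by -0.55 (SE 0.24, limma adjusted p = 0.606). Without FSAP-deficient sham replicate 1 the difference of Nr1i3 was -0.29, and with slide as a block it was 0.18, the opposite sign. The other 8 differed by -0.14 to 0.71, with Nr0b2 at the upper end (95% interval -0.26 to 1.67).

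The interaction, which is the BDL change in FSAP-deficient livers minus that in WT livers, was called for 0 of the 10 genes, where 0.0102% of all genes were called. Ppara and Nr0b2 passed an unadjusted p under 0.05, as did 13.7% of all genes. For Ppara the interaction was 1.08 (95% interval 0.33 to 1.83, limma adjusted p = 0.205). Without the arrays with Y-linked signal, where only replicate 3 of the FSAP-deficient BDL group was left, it was 0.62. For Nr0b2 the interaction was -1.48 (95% interval -2.85 to -0.11, limma adjusted p = 0.33). None of the alternatives called any of the 10 in the genotype comparisons or in the interaction. So the larger number of falls in FSAP-deficient livers is not shown to be a difference between the genotypes.

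**Figure D4:**
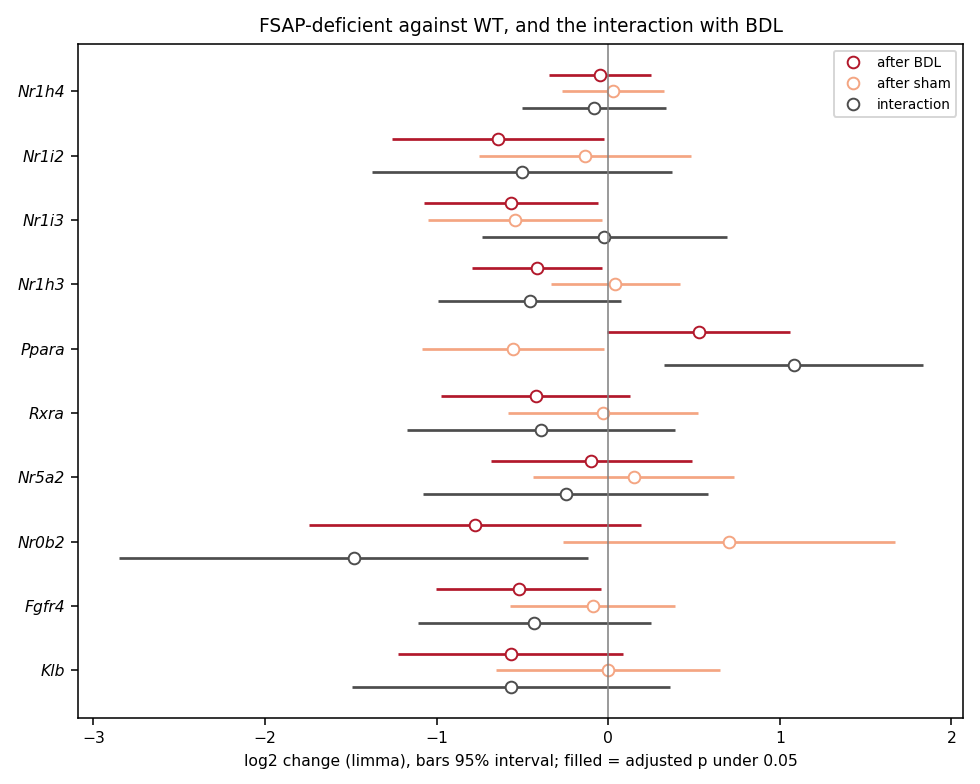
FSAP-deficient against WT livers after BDL and after sham, and the interaction of genotype and BDL, as log2 change with its 95% interval, open since no adjusted p was under 0.05. Ppara lies right of 0 after BDL and in the interaction, and Nr0b2 lies left of 0 in both.

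The genes that these receptors control, other receptors and coregulators were followed with 9 lists of 194 names, of which 190 were on the array and 182 were tested. None of the 182 was called between genotypes after BDL, after sham or in the interaction (0 of 182 each). At an unadjusted limma p under 0.05, 40, 23 and 23 of the 182 passed, against 12.9%, 7.89% and 13.7% of all genes. The values that follow are log2 changes after BDL against sham. The counts of called genes are to be read against the shares of all genes, 22.8% down and 16.2% up in FSAP-deficient and 17.7% down and 15.2% up in WT livers.

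Targets of PPAR alpha, mostly enzymes of fatty acid oxidation, were mostly down. Of 28 tested, 16 fell and 2 rose in FSAP-deficient livers, and 18 fell and 0 rose in WT livers. The median change was -0.77 in FSAP-deficient and -0.93 in WT livers. Fabp1, the liver fatty acid-binding protein, fell by 2.42 in FSAP-deficient and by 3.03 in WT livers. Cyp4a10, a fatty acid omega-hydroxylase, fell by 2.90 in FSAP-deficient and by 5.32 in WT livers. Its sham levels were 0.78, 4.60 and 3.44 in FSAP-deficient and 4.46, 4.54 and 4.25 in WT livers, so replicate 1 of the FSAP-deficient group was the low one, and the FSAP-deficient call was lost in 7 of 24 alternatives. Cyp4a14, of the same enzyme family, was called in neither genotype, and its sham levels of -5.61, 3.71 and 2.80 in FSAP-deficient livers were low in the same replicate. That array was also the only sham array with Y-linked signal, and it was alone on its slide and scan day. The part of each in its levels cannot be told apart. Fgf21, a hormone of fasting made by the liver, was called in neither genotype.

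Enzymes of bile acid synthesis and conjugation were also mostly down. Of 18 tested, 13 fell and 0 rose in FSAP-deficient livers, and 10 fell and 1 rose in WT livers. Cyp8b1, the sterol 12-alpha-hydroxylase needed for cholic acid, fell by 4.08 in FSAP-deficient and by 4.75 in WT livers. Cyp7a1, the rate-limiting enzyme of the classic pathway and the best known target of the SHP and FGF15 feedback, was called in neither genotype. Its level was 3.02, 2.77 and 2.52 in FSAP-deficient livers after BDL, against 2.00, 3.85 and 3.37 after sham. In WT mice it was 2.69, 2.33 and 3.25 after BDL, against 3.47, 2.64 and 4.42 after sham. Its sham mice were spread widely in both genotypes, and the change was -0.30 (adjusted p = 0.672) in FSAP-deficient and -0.75 (adjusted p = 0.289) in WT livers. Cyp7b1, of the alternative pathway, fell by 2.84 in FSAP-deficient and by 2.64 in WT livers, the WT call being lost in 8 of 24 alternatives. Slc27a2, a very long-chain acyl-CoA synthetase, fell by 1.64 in FSAP-deficient and by 1.85 in WT livers, and Akr1c6, an aldo-keto reductase, fell by 1.56 in FSAP-deficient and by 1.92 in WT livers.

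Of 16 bile transporters tested, 3 rose and 4 fell in FSAP-deficient livers, and 2 rose and 3 fell in WT livers. The shares that fell, 25% in FSAP-deficient and 18.8% in WT livers, were near those of all genes. The FXR target Slc51b, a subunit of the basolateral bile acid exporter, had levels of -0.82, -0.28 and -0.30 in FSAP-deficient livers after BDL, against -2.72, -2.26 and -1.39 after sham. In WT livers its levels were 1.15, 1.26 and 1.44 after BDL, against -1.80, -1.34 and -1.86 after sham. It rose by 1.66 in FSAP-deficient and by 2.95 in WT livers, and its BDL and sham mice did not overlap in either genotype. Abcb11, the canalicular bile salt pump and also an FXR target, fell in FSAP-deficient livers (-1.32, adjusted p = 0.00032) and stood at -0.48 (adjusted p = 0.0683) in WT livers. Slc10a1, the sodium-driven bile acid importer, was called in neither genotype, at -0.38 in FSAP-deficient and -0.10 in WT livers. Slco1b2, an organic anion importer, fell by 1.61 in FSAP-deficient and by 1.85 in WT livers, and Abcb1b, a multidrug exporter, rose by 1.65 in FSAP-deficient and by 1.17 in WT livers. Slco1a1, another importer, was well above background on 1 of 3 FSAP-deficient BDL arrays and on none of the WT BDL arrays (0 of 3), where it was at least 24-fold lower than after sham.

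Of 24 tested targets of PXR and CAR, 7 fell and 4 rose in FSAP-deficient livers, and 10 fell and 2 rose in WT livers. The shares that fell were 29.2% in FSAP-deficient livers, near that of all genes, and 41.7% in WT livers. Cyp3a11, the classic PXR target, was called in neither genotype, at 0.12 in FSAP-deficient and 0.59 in WT livers. Cyp2b10, the classic CAR target, changed by -4.46 (adjusted p = 0.0454) in FSAP-deficient and by -3.80 (adjusted p = 0.0895) in WT livers, and its FSAP-deficient call was lost in 11 of 24 alternatives. Its FSAP-deficient sham levels were -0.62, 6.11 and 5.999, with replicate 1 again the low one. Without that array, which differed from the other FSAP-deficient sham arrays in Y-linked signal, slide and scan day, the change was -6.68. Cyp2c37, a cytochrome P450, fell by 3.52 in FSAP-deficient and by 5.04 in WT livers. Sult2a8, a sulfotransferase that acts on bile acids in mice, fell by 6.20 in FSAP-deficient and by 5.98 in WT livers. Sult1e1, the estrogen sulfotransferase, rose by 4.65 in FSAP-deficient and by 6.43 in WT livers.

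Of 16 LXR targets, 6 fell and 4 rose in FSAP-deficient livers, and 5 fell and 3 rose in WT livers. Srebf1, the driver of lipogenesis, fell by 1.61 in FSAP-deficient and by 1.30 in WT livers. Fasn, the fatty acid synthase, fell by 1.50 in FSAP-deficient and by 2.38 in WT livers. Abcg5 and Abcg8 together export sterols into bile. Abcg8 fell by 2.53 in FSAP-deficient and by 1.33 in WT livers, the WT call being lost in 10 of 24 alternatives. Abcg5 changed by -1.34 (adjusted p = 0.00227) in FSAP-deficient and by -0.23 (adjusted p = 0.533) in WT livers. Lpl, the lipoprotein lipase, rose by 4.14 in FSAP-deficient and by 4.81 in WT livers.

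Of 22 tested targets and feedback genes of FXR and FGF signalling, 7 fell and 4 rose in FSAP-deficient livers, and 5 fell and 5 rose in WT livers. Egr1, an immediate-early transcription factor downstream of MAP kinases, rose by 3.88 in FSAP-deficient and by 2.94 in WT livers. Slc22a7, an organic anion transporter, fell by 3.94 in FSAP-deficient and by 2.26 in WT livers. Spry4, a feedback inhibitor of receptor tyrosine kinases, fell by 2.00 in FSAP-deficient and by 1.95 in WT livers, and was well above background on 2 of 3 BDL arrays of each genotype. Fgf15 was not well above background on any of the 12 liver arrays and was not tested.

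Among the other FGF receptors, Fgfr1 rose in both genotypes. Its levels were 0.21, 0.04 and 0.70 in FSAP-deficient livers after BDL, against -0.48, -2.04 and -2.27 after sham. In WT livers they were -0.26, -0.06 and -0.09 after BDL, against -1.91, -1.68 and -1.90 after sham. The BDL and sham mice did not overlap in either genotype, and Fgfr1 rose by 1.91 in FSAP-deficient and by 1.69 in WT livers. Fgfrl1, a receptor without a kinase domain, fell by 1.13 in FSAP-deficient and by 1.51 in WT livers. Gpbar1, the membrane receptor TGR5 for bile acids, was called in neither genotype, at -0.48 in each. Vdr, the vitamin D receptor, which also binds lithocholic acid, was not well above background on any sham array and was at least 1.56-fold higher after BDL in FSAP-deficient and at least 1.12-fold higher in WT livers. Chrm3, a muscarinic receptor, was well above background on 1 of 3 FSAP-deficient sham arrays and on 0 of 3 WT sham arrays. It rose by 2.06 in FSAP-deficient livers and was at least 2.34-fold higher in WT livers. Of the 9 tested genes of this list, 4 rose and 2 fell in each genotype.

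Of 27 other nuclear receptors of the liver, 10 fell and 4 rose in FSAP-deficient livers, and 9 fell and 1 rose in WT livers. Hnf4a, the receptor that maintains hepatocyte identity and 1 of the hepatocyte markers above, fell in FSAP-deficient livers (-0.59, adjusted p = 0.0212) and stood at 0.10 (adjusted p = 0.717) in WT livers. The call of Hnf4a was lost in 8 of 24 alternatives, quantile normalization among them. The leaving out of the arrays with Y-linked signal, which keeps only 1 FSAP-deficient BDL array, was another. Thrb, a thyroid hormone receptor, fell by 1.53 in FSAP-deficient and by 1.52 in WT livers. Nr4a1, an immediate-early orphan receptor, rose by 1.70 in FSAP-deficient and by 2.27 in WT livers.

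Of 22 coregulators, 7 fell and 1 rose in FSAP-deficient livers, and 3 fell and 3 rose in WT livers. Ppargc1a, the coactivator PGC-1 alpha that works with PPAR alpha and others, fell in FSAP-deficient livers (-1.17, adjusted p = 0.000724) and stood at -0.51 (adjusted p = 0.0586) in WT livers. Its relative Ppargc1b fell by 1.37 in FSAP-deficient and by 1.45 in WT livers. The corepressor Ncor1 fell by 0.57 in FSAP-deficient and by 0.64 in WT livers, and the arginine methyltransferase Prmt1 rose by 0.75 in FSAP-deficient and by 1.03 in WT livers. The call of Ncor1 was lost in 16 of 24 alternatives in FSAP-deficient and in 9 in WT livers, and that of Prmt1 in 9 in FSAP-deficient livers.

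**Figure D5:**
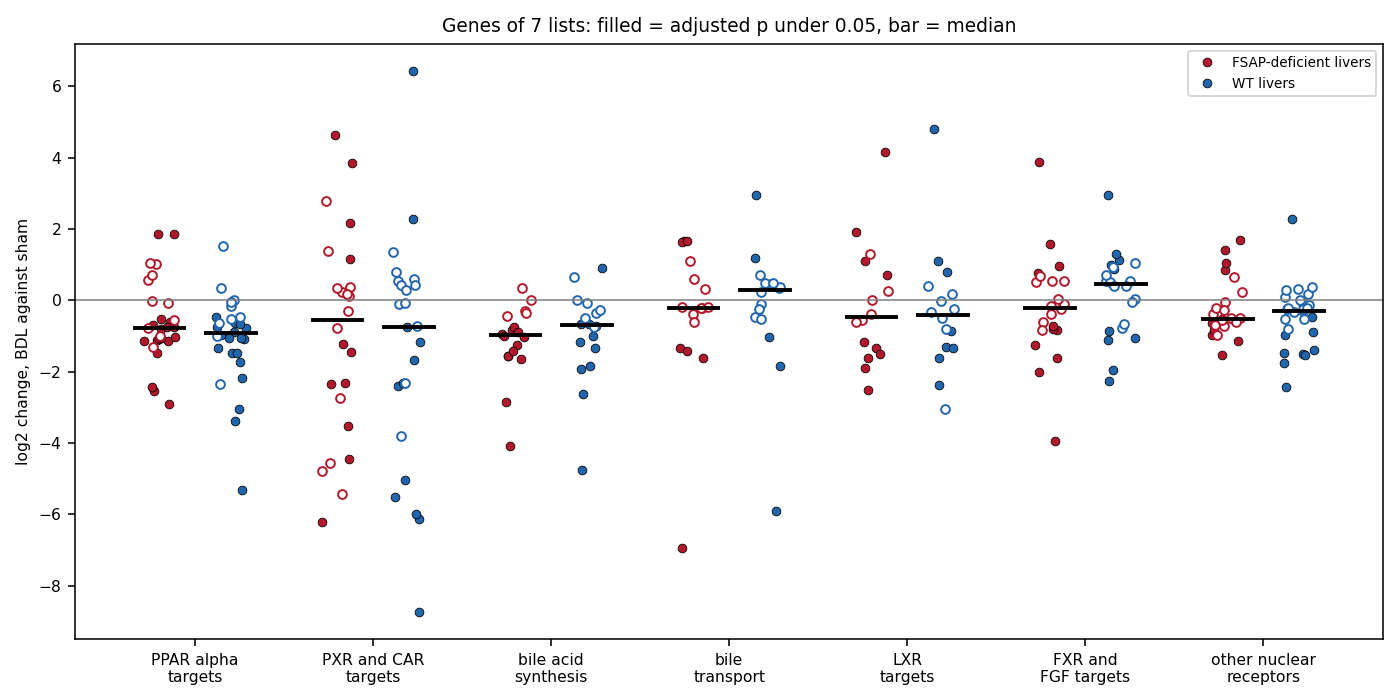
BDL change of each tested gene in 7 of the lists, FSAP-deficient livers left of WT livers, as log2 change, filled where the adjusted p was under 0.05, with a bar at the list's median. Genes not well above background in a group are drawn at the fitted change, which is no bound, and the bar of the PPAR alpha targets lies at -0.77 in FSAP-deficient and -0.93 in WT livers.

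The 12-array pattern of each receptor was compared with 15868 other named genes by the root-mean-square difference of their levels, each centred on its own mean. Where a gene varies mostly between BDL and sham, as Ppara does, a near pattern says little more than a like response to surgery. Nr0b2, Nr1i2 and Nr5a2 were called in neither genotype, and for them a near pattern cannot be read as a shared response to surgery, or as the lack of one. Nearest to Ppara were Mgll, the monoacylglycerol lipase (0.26), and Akr1c20, an aldo-keto reductase (0.278), where the pattern of Ppara itself had a size of 1.38. Nearest to Nr1h4 were Tmem179b (0.0805) and Twnk, the mitochondrial DNA helicase (0.0853), at a size of 0.332. Nearest to Fgfr4 were Plg, the plasminogen gene (0.138), and Crb3 (0.148), and to Rxra Zdhhc6 (0.11) and Got2 (0.116). Nearest to Nr1i3 were Sox6 (0.178) and Sbk1 (0.189), to Nr1h3 Gm5553 (0.0933) and Taco1 (0.0935), and to Klb Porcn (0.165) and Gm4784 (0.197). Nearest to Nr5a2 were Rab17 (0.192) and Olfr170 (0.197), and to Nr1i2 Dop1b (0.209) and Spata33 (0.234). Nearest to Nr0b2 were Ttbk1 (0.317) and Dexi (0.355), at a size of 0.618.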

How the data were processed

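Each array has 1 scanner file, deposited as spot intensity values on a linear scale. The software was Agilent Feature Extraction 10.5.1.1 (protocol GE1_105_Jan09) and probe positions are on mm9, per the file headers. The processed signal used here was background-subtracted within its array without scaling to other arrays, per the file headers. The authors' series matrix holds log2 values of these arrays. The sources used here do not say how they were made, and they served only as an alternative.

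Spots marked as outliers (98 to 193 per array) were left out, log2 was taken, spots of 1 probe were averaged, and the 75th percentile of the array was subtracted. FSAP-deficient sham replicate 1 had the same gene name as WT sham replicate 1 on 8.53% of its non-control spots and was joined by probe identifier. Its values are rounded to 3 significant digits in the file. Probes were named by RefSeq accession (26412 of 33063 matched), and the brightest probe stood for a gene. A gene was tested if 3 or more of the 12 arrays had it well above background, which held for 19536. One model of 4 group means was fitted with limma 3.58.1 in R 4.3.3, with 8 residual and 2.69 prior degrees of freedom. The two-sided p-values were adjusted after Benjamini and Hochberg, with a threshold of 0.05. Where all arrays of the dimmer group lacked signal well above background, only a bound is given. It divides the brighter group's mean by the larger of 2 values, the dim probe's measured signal and the lowest signal well above background on the array. The code was tested on simulated data. The number of arrays limits the precision.

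The 10 genes and the gene and marker lists were chosen with earlier results of these data known. Named from the lists are a fixed set of well-known genes and, per list, up to 3 more that were called in both genotypes in 1 direction, by the largest mean change. Of the genes this rule names, 3 are not reported here. For each of the 10, the 2 genes nearest in pattern are named. Promoter sequences are from RefSeq (GRCm38.p6) and probe sequences from the scanner files.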

Additional observations from a re-analysis of the deposited data

How the results depend on the processing

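Each result was recomputed under 24 alternatives (23 for the interaction): other background correction, scaling, values, filters, probe rule, slide block, replicate block, samples in the model, arrays with Y-linked signal left out, and each array left out in turn. The number of the 10 receptor genes called after BDL was 7 in FSAP-deficient and 3 in WT livers. It moved to 3 in FSAP-deficient and 1 in WT livers with slide as a fixed block, and to 5 in WT livers with only the WT groups in the model. Leaving out 1 array gave 5 to 8 in FSAP-deficient and 3 to 4 in WT livers. Quantile normalization gave 5 and 2, and median scaling 8 and 4, for FSAP-deficient and WT livers. Median scaling moved the median change of all genes to -0.36 in FSAP-deficient and -0.19 in WT livers, and the share of rises among all calls to 28.7% in FSAP-deficient and 33.1% in WT livers, against 41.5% and 46.1% as reported, so small changes depend on the scaling. No called change of the 10 genes turned sign. Ppara kept both calls in all 24, and 0 of the 10 genes were called between genotypes or in the interaction under any alternative. The count of all genes called ranged from 2 to 135 between genotypes after BDL (42 as reported) and from 0 to 22 for the interaction (2 as reported). The fit without the arrays with Y-linked signal is left out of these ranges, since it keeps only 1 FSAP-deficient BDL array. With slide as a block the count fell to 4192 in FSAP-deficient and 3303 in WT livers after BDL (7626 and 6418 as reported). Of the recomputed counts of called genes in the 9 lists after BDL, 24 moved by over 1.5 times and 408 did not. With slide as a block the PPAR alpha targets called numbered 8 in FSAP-deficient and 9 in WT livers, against 18 in each, and the bile acid enzymes 8 in FSAP-deficient livers, against 13. Transporters called in WT livers numbered 8 after quantile normalization, against 5. Other nuclear receptors called in FSAP-deficient livers numbered as few as 6, against 14, and coregulators as few as 3 in FSAP-deficient and 1 in WT livers, against 8 and 6. The causes were not tested.

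The replicate numbers of the titles did not pair the samples: same-numbered arrays deviated from their group means with correlations between -0.20 and 0.19. With the replicate block the called receptor genes among the 10 numbered 8 in FSAP-deficient and 3 in WT livers after BDL, and 0 in the other comparisons. Array signal limits the dim genes: bounds replace changes where a group had no signal above background.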
